A study of Papio cynocephalus with 12 samples.

Results

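The route from Toll-like receptors to NF-kappaB was followed in 10 human reference transcripts, of 40915 accessions in the count tables, through 6 mappings of the same baboon reads. They were chosen by gene name, with 1 accession for each gene, and the rule sets no threshold on a measured value. The genes are LY96 (NM_015364), MYD88 (NM_002468), TICAM1 (NM_182919), IRAK4 (NM_016123), IRAK1 (NM_001569), IRAK3 (NM_007199), TRAF6 (NM_145803), NFKB1 (NM_003998), RELA (NM_021975) and TNFAIP3 (NM_006290). Toll-like receptors on and inside blood leukocytes sense parts of microbes, such as the lipopolysaccharide and lipoproteins of bacteria. A receptor that has bound its ligand recruits adaptor proteins, which pass the signal through kinases and a ubiquitin ligase until NF-kappaB enters the nucleus and turns on inflammatory genes. Inhibitors in the same route, some of them induced by NF-kappaB itself, limit the response. These roles are known from human and mouse cells.

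The samples were 12 yellow baboons (Papio cynocephalus), adult males bred in a colony, with blood drawn immediately before an inoculation with Streptococcus pneumoniae or, in some animals, a control inoculation without bacteria. All 12 therefore form 1 untreated baseline group of 1 sample per animal, and later time points were not analysed here. Blood was collected in PAXgene tubes and globin transcripts were depleted, while the labels name mononuclear cells as the source, a difference that the counts of these members cannot settle. Every animal's reads were aligned to human sequence in 6 ways, in order to compare how well reference-based mapping works for a primate without its own reference: Bowtie2 and Stampy on the transcriptome, and Bowtie2-G, Stampy-G, TopHat2 and GSNAP on the genome. TopHat2 and GSNAP can split a read over an intron, and Bowtie2 and Stampy cannot.

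Values are raw counts of reads assigned to a transcript by htseq-count. With the mode used, reads that overlap several transcripts to the same extent go to none. Total counts per animal were 7249470 to 9508757 with GSNAP, the shallowest table, and 15068267 to 18911340 with Stampy, the deepest. Since the 6 columns of an animal come from 1 library, a p-value between methods concerns assigned reads, and not how much RNA differed. It is bounded by counting error, as if the columns were separate draws of reads. A small gain at low counts can therefore fail the test although it recurs in every animal. Each value belongs to 1 accession and not to a whole gene, because other transcripts of these genes were not identified here. In blood, more cells of a type and more RNA per cell cannot be told apart. Levels of different genes were not ranked against each other, since transcript lengths were not used here.

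Of the 10 members, 4 had no count in any of the 72 columns. They were MYD88, the adaptor that most Toll-like receptors share, IRAK4, the kinase that MYD88 recruits first, RELA, the p65 subunit of NF-kappaB, and TNFAIP3, known as A20, a ubiquitin-editing inhibitor that NF-kappaB induces. Summed over the 12 animals, a count of 0 allowed a level of up to 0.0152 CPM (counts scaled to the total of the table's column) in the Stampy table and up to 0.0305 CPM in the GSNAP table, covering counting error only. Among all protein-coding (NM) accessions, 11946 of 33934 (35.2%) had no count in any column, so 4 of 10 members was near that background. A 0 here is a 0 for that accession under this counting, and whether reads of these genes were assigned to another transcript or to none was not tested.

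The other 6 members had counts in at least 1 table, and 4 of them (LY96, TICAM1, IRAK1 and IRAK3) in all 6. Taking at least 5 counts in all 12 animals as detection, 5 members were detected with Stampy-G and with TopHat2, 4 with Bowtie2 and with Stampy, and 2 with Bowtie2-G and with GSNAP. The same minimum was met by 34.3% of NM accessions with Stampy, 29.4% with Bowtie2, 28.7% with TopHat2, 28.6% with Stampy-G, 26.0% with Bowtie2-G and 24% with GSNAP. The members detected with Bowtie2-G and GSNAP were TICAM1 and IRAK3.

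**Figure D1:**
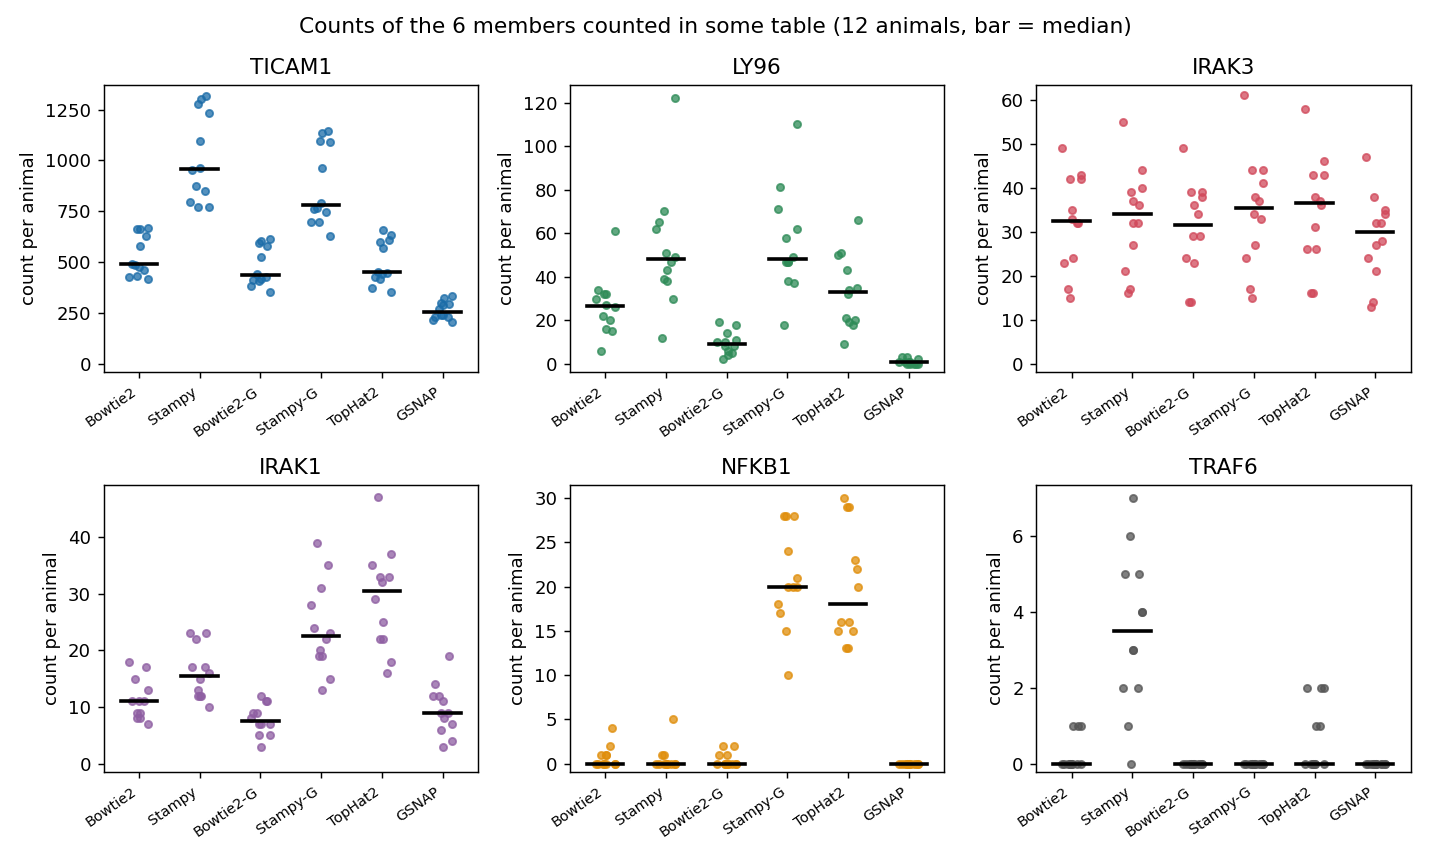
Raw counts per animal of the 6 members with any count, by mapping method (1 point per animal, 12 animals, bar at the median, separate vertical scale for each gene). IRAK3 stays near the same raw count with all 6 methods, LY96 falls to 0 to 3 counts with GSNAP, and NFKB1 is well above 0 with Stampy-G and TopHat2.

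LY96, also called MD-2, is the co-receptor that binds lipopolysaccharide together with TLR4. Its counts (lowest, median and highest of 12 animals) were 18, 48 and 110 with Stampy-G, 12, 48 and 122 with Stampy, and 9, 33 and 66 with TopHat2. They were 6, 26.5 and 61 with Bowtie2, 2, 9 and 19 with Bowtie2-G, and 0, 1 and 3 with GSNAP. LY96 was thus at or near 0 with GSNAP in every animal, with 5 of 12 animals at 0, and the animals of the GSNAP and TopHat2 tables did not overlap. In the order of the tables, the step from Stampy-G to Stampy was shared by 8 of 12 animals and reversed in 3, and that from TopHat2 to Bowtie2 was shared by 9 and reversed in 2, so these neighbors were not in 1 order in all animals. The other neighbors were in the same order in 12 of 12 animals.

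TICAM1, also called TRIF, is the adaptor of TLR3 and, after endocytosis, of TLR4, and leads to type I interferon as well as NF-kappaB. Its counts were 771, 958.5 and 1316 with Stampy, 629, 779.5 and 1143 with Stampy-G, and 418, 489 and 668 with Bowtie2. They were 351, 450 and 659 with TopHat2, 355, 435.5 and 615 with Bowtie2-G, and 204, 255 and 335 with GSNAP. The animals of the GSNAP table lay below those of the other 5 tables, with no overlap. Within animals the order of neighboring tables held in 12 of 12, except for TopHat2 over Bowtie2-G, which held in 10 and was reversed in 2.

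IRAK1 is a kinase that IRAK4 phosphorylates within the MYD88 complex. Its counts were 16, 30.5 and 47 with TopHat2, 13, 22.5 and 39 with Stampy-G, and 10, 15.5 and 23 with Stampy. They were 7, 11 and 18 with Bowtie2, 3, 9 and 19 with GSNAP, and 3, 7.5 and 12 with Bowtie2-G. TopHat2 was above Stampy-G in 10 of 12 animals, Bowtie2 above GSNAP in 8 and GSNAP above Bowtie2-G in 6, so these neighbors were not in 1 order in all animals.

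IRAK3, also called IRAK-M, is a member of the same family that lacks catalytic activity, is found mainly in monocytes and macrophages, and restrains the signal. Its counts were 16, 36.5 and 58 with TopHat2, 15, 35.5 and 61 with Stampy-G, and 16, 34 and 55 with Stampy. They were 15, 32.5 and 49 with Bowtie2, 14, 31.5 and 49 with Bowtie2-G, and 13, 30 and 47 with GSNAP. All 6 tables overlapped almost completely, and no pair of neighbors was in the same order in 12 of 12 animals.

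The ratio of the highest to the lowest summed count over the 6 tables compared raw counts, without scaling for the different totals of the tables. Scaled to those totals, IRAK3 was lowest with Stampy (mean 2.01 CPM) and highest with GSNAP (3.50 CPM). TICAM1 was highest with Stampy (62.4 CPM) and lowest with GSNAP (32.4 CPM). The values that follow are for raw counts. For IRAK3 it was 1.21 (416 counts with TopHat2 and 345 with GSNAP), and 1.54% of the 14716 accessions with a mean of at least 10 counts in some table had a smaller ratio. The ratio was 3.71 for IRAK1 (53.0% of accessions smaller) and 3.85 for TICAM1 (54.0% smaller), close to the median of 3.33 over all these accessions (quartiles 1.90 and 20.04). For LY96 it was 55.4 (83.0% smaller), from 665 counts with Stampy-G to 12 with GSNAP. For NFKB1 it was at least 83 (87.1% smaller), taken against a floor of 3 counts over the 12 animals.

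NFKB1 encodes p105, the precursor of the p50 subunit of NF-kappaB. Its counts were 10, 20 and 28 with Stampy-G and 13, 18 and 30 with TopHat2. The median was 0 in the other 4 tables, with a highest count of 5 in 1 animal with Stampy, 4 with Bowtie2, 2 with Bowtie2-G and 0 with GSNAP. Summed over animals this was 249 counts with Stampy-G and 241 with TopHat2 against 9, 7, 6 and 0 with Bowtie2, Stampy, Bowtie2-G and GSNAP. The tables with and without NFKB1 did not overlap in any animal, and Stampy-G was above TopHat2 in 6 animals and below it in 5.

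TRAF6, the ubiquitin ligase that IRAK1 activates, was counted mostly with Stampy. With Stampy it had 0 to 7 counts per animal (median 3.5, sum 42), with at least 1 in 11 of 12 animals. The sums were 8 with TopHat2 and 3 with Bowtie2, and 0 with Bowtie2-G, Stampy-G and GSNAP. At these counts the levels of TRAF6 in single animals could not be told apart.

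Differences between methods were fitted for all transcripts with edgeR's quasi-likelihood test, with the animal as a block and the same library size for both columns of an animal. A transcript was tested where at least 12 of the 24 columns reached 10 counts in a library of median size, and called at an adjusted p (Benjamini-Hochberg over all transcripts tested) under 0.05. For NFKB1 this minimum was met only by the table in which it was high, so it had to differ once it was tested, and its differences are given as counts with no test. IRAK1 and LY96 also met it mainly where they were high, with 2 and 6 animals over the minimum in the Bowtie2-G table and 5 and 0 in the GSNAP table. For IRAK1 the Stampy-G or the TopHat2 table was enough alone, and for LY96 the Stampy-G table. Their p-values there against Bowtie2-G or GSNAP are descriptions. TICAM1 and IRAK3 met the minimum in all 12 animals of every table. For this reason the calls are named below beside the share of all transcripts called, and nothing is read from how many members were called. Folds given as such are ratios of counts summed over the 12 animals, and log2 differences are from the fit, with their standard error (SE).

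On the transcriptome in place of the genome, LY96 gained reads with Bowtie2 and did not pass the test with Stampy, IRAK1 lost reads with Stampy, and NFKB1 was counted with Stampy almost only on the genome. With Bowtie2, LY96 had 321 counts on the transcriptome and 115 on the genome, 2.79-fold more, and more in 12 of 12 animals. The log2 difference was 1.47 (SE 0.157, edgeR adjusted p = 1.11e-08). TICAM1 had 1.11-fold more (log2 0.16, SE 0.0262, edgeR adjusted p = 4.98e-08, or 0.393 without the animal block), higher in 12 of 12 animals, but with own totals and TMM scaling the log2 difference was -0.17. The median over all 11365 transcripts tested was 0.22 on this log2 scale, and 41.2% of them had a smaller difference than TICAM1, so its gain was below that of the usual transcript. IRAK3 had 387 against 368 counts, a log2 difference of 0.07 (SE 0.105, edgeR adjusted p = 0.541), which turned to -0.25 with own totals. Of all transcripts tested 70.2% were called higher on the transcriptome and 7.28% lower, and LY96 and TICAM1 were the members called, both higher. IRAK1, with 137 against 94 counts and more in 10 of 12 animals, missed the minimum for testing. Without a filter on low counts its log2 difference was 0.54 (SE 0.193, edgeR adjusted p = 0.0106).

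With Stampy, IRAK1 and NFKB1 had fewer counts on the transcriptome and TICAM1 had more. LY96 had 628 counts on the transcriptome and 665 on the genome, a log2 difference of -0.08 (SE 0.0803, edgeR adjusted p = 0.363), with 3 animals higher and 8 lower. IRAK1 had 192 against 288 counts, lower on the transcriptome in 12 of 12 animals, with a log2 difference of -0.58 (SE 0.134, edgeR adjusted p = 1.95e-05). Few transcripts moved as far down, since 4.78% of those tested had a smaller difference. NFKB1 had 7 counts on the transcriptome and 249 on the genome, a ratio of 0.0281 with a 95% counting interval of 0.0112 to 0.0588, and was lower in 12 of 12 animals. TICAM1 had 1.16-fold more on the transcriptome (log2 0.22, SE 0.0192, edgeR adjusted p = 4.96e-09, or 0.248 without the animal block), next to a median of 0.19 over all transcripts, and its log2 difference was -0.06 with own totals. TRAF6 had 42 counts on the transcriptome and 0 on the genome, at least 14-fold higher against a floor of 3 counts over the 12 animals, and it was not tested because its counts were too low. Of 13339 transcripts 64.7% were called higher on the transcriptome and 9.06% lower, and TICAM1 was called higher and IRAK1 lower. IRAK3 (396 against 415 counts, log2 -0.07, SE 0.101, edgeR adjusted p = 0.571) was in neither group. Under own totals and TMM scaling TICAM1, LY96, IRAK1 and IRAK3 were all called lower on the transcriptome.

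**Figure D2:**
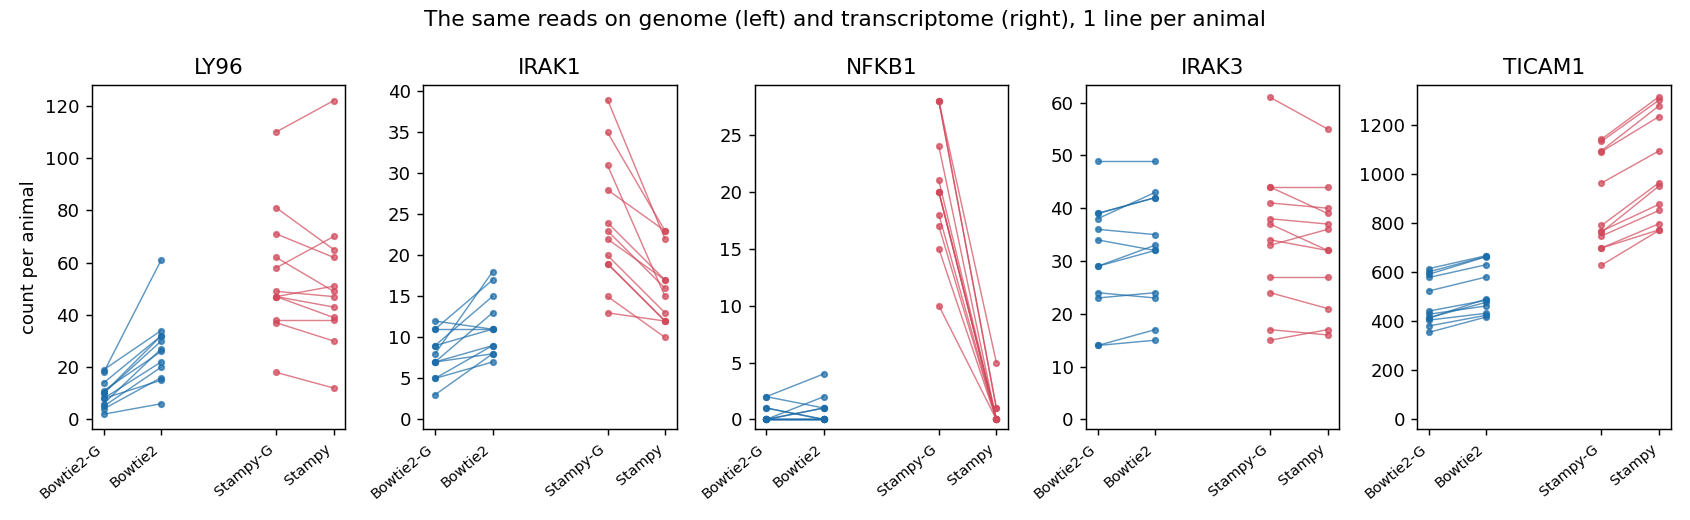
Counts of 5 members in each animal on the genome and on the transcriptome, for Bowtie2 (blue) and Stampy (red), with 1 line per animal (12 animals). LY96 lines rise steeply with Bowtie2 and not with Stampy, and the IRAK1 and NFKB1 lines fall with Stampy in 12 of 12 animals.

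The effect of the reference was compared between the programs in 1 fit over the 4 tables, a test added after the values had been seen. Of 13834 transcripts tested, 16.6% had a higher (2295) and 30.8% a lower (4254) change from genome to transcriptome with Stampy than with Bowtie2, and with own totals and TMM scaling 3203 were higher and 3089 lower. For LY96 the change with Stampy was lower by 1.55 on the log2 scale (log2 difference of -1.55, SE 0.176, edgeR adjusted p = 9.49e-13), and for IRAK1 the value was -1.12 (SE 0.235, edgeR adjusted p = 6.32e-06). Both stayed called and lower with own totals, at -1.50 and -1.06. The Stampy-G table alone was enough to take LY96 and IRAK1 past the minimum for testing, so their p-values here are descriptions. For NFKB1, counted almost only in the Stampy-G table, the fitted value was -5.37 and is a description. IRAK3 differed by -0.14 (SE 0.146, edgeR adjusted p = 0.466) and TICAM1 by 0.06 (SE 0.0325, edgeR adjusted p = 0.121, or 0.12 with adjusted p = 0.00153 under own totals).

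Stampy counted more reads than Bowtie2 for LY96, TICAM1 and IRAK1 on both references. The gain of LY96 and IRAK1 was larger on the genome, which is the same contrast over 4 tables seen from the other side. On the transcriptome, LY96 had 628 against 321 counts, 1.96-fold more (log2 0.96, SE 0.099, edgeR adjusted p = 1.34e-10). TICAM1 had 12215 against 6404, 1.91-fold more (log2 0.93, SE 0.0223, edgeR adjusted p = 2.83e-15). IRAK1 had 192 against 137, 1.40-fold more (log2 0.48, SE 0.161, edgeR adjusted p = 0.00297), a call that was lost with own totals (log2 0.07, adjusted p = 0.679). Each of these was higher in 12 of 12 animals, and the ratio in single animals ran from 1.59 to 2.38 for LY96, from 1.79 to 2.09 for TICAM1 and from 1.23 to 1.63 for IRAK1. IRAK3 had 396 against 387 counts (log2 0.03, SE 0.103, edgeR adjusted p = 0.769), while the median over 13021 transcripts was 0.38, and with own totals its log2 difference was -0.38. Called higher with Stampy were 82.6% of these transcripts and called lower 3.36%, and LY96, TICAM1 and IRAK1 were called higher. For TRAF6, 42 counts against 3 gave a ratio of 14 with a 95% counting interval of 4.47 to 70.6, and NFKB1 had 7 against 9 counts.

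On the genome, Stampy-G had 249 counts of NFKB1 and Bowtie2-G 6, a ratio of 41.5 with a 95% counting interval of 18.8 to 114, higher in 12 of 12 animals. LY96 had 665 against 115, 5.78-fold more (log2 2.52, SE 0.146, edgeR adjusted p = 6.21e-13), and 98.5% of the transcripts tested had a smaller difference. IRAK1 had 288 against 94, 3.06-fold more (log2 1.60, SE 0.171, edgeR adjusted p = 3.09e-11), with 94.9% smaller. Both were higher in every animal, by 3.36 to 9.80 times for LY96 and by 2 to 4.33 times for IRAK1. The Stampy-G table alone was enough to take both past the minimum, so their p-values and shares are descriptions. TICAM1 was 1.83-fold higher (log2 0.87, SE 0.0237, edgeR adjusted p = 5.10e-17), with 83.0% of transcripts below it. IRAK3, with 415 against 368 counts and more in 11 of 12 animals, had a log2 difference of 0.17 (SE 0.103, edgeR adjusted p = 0.0993), which was -0.28 with own totals. The median over 10675 transcripts was 0.42. Called higher with Stampy-G were 89.8% of them and called lower 1.85%, and LY96, IRAK1 and TICAM1 were called higher.

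**Figure D3:**
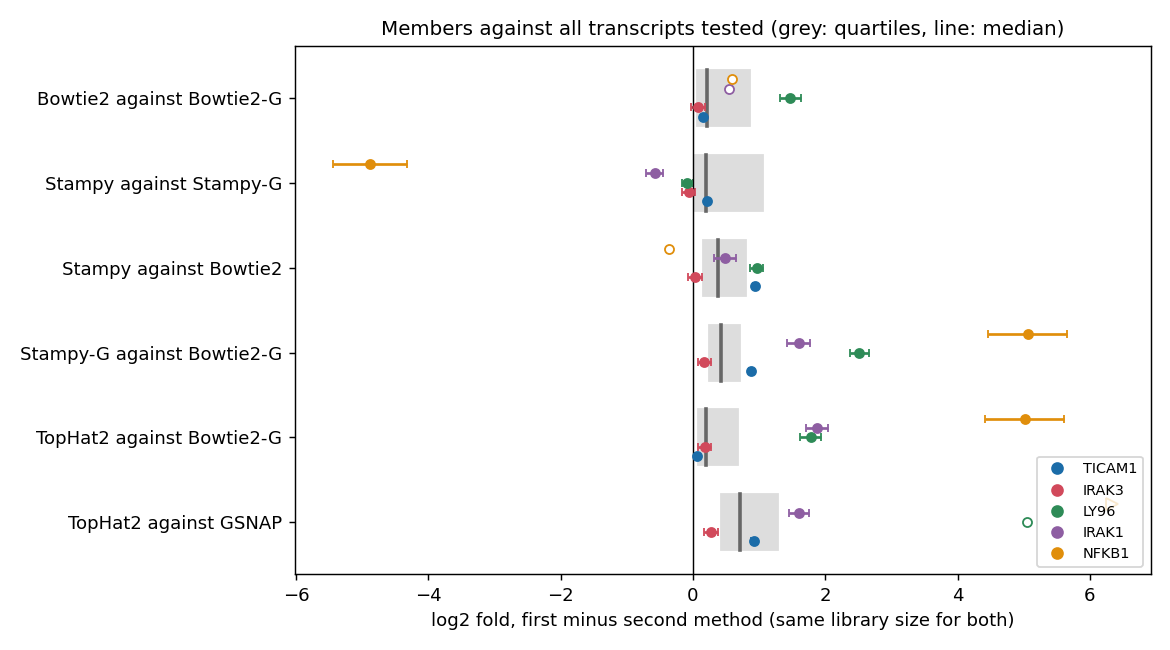
Log2 difference of each tested member (filled points) in 6 comparisons of methods over 12 animals, with the same library size for both methods. Bars are 1 SE, the larger of that from the fit and the counting error of the summed counts. Grey boxes span the quartiles of all transcripts tested and the dark line is their median. Open points are log2 ratios of summed counts of members not tested. The open triangle is NFKB1 for TopHat2 against GSNAP, where GSNAP had 0 counts. It marks a lower bound, 80.3-fold against a floor of 3 counts over the 12 animals, and has no SE. IRAK3 lies near 0 in all 6 comparisons, and LY96, IRAK1 and NFKB1 lie to the right of the boxes for Stampy-G and TopHat2 against Bowtie2-G. NFKB1 met the minimum for testing only through the table in which it was high, so its filled points had to lie away from 0. The Stampy-G or TopHat2 table alone was enough for IRAK1, and the Stampy-G table for LY96, so these places against the boxes are descriptions.

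TopHat2, which maps to annotated transcripts first and then splits the remaining reads over introns, was compared with Bowtie2-G, which maps each read whole to the same genome. NFKB1 had 241 against 6 counts, a ratio of 40.2 with a 95% counting interval of 18.2 to 110.5, higher in 12 of 12 animals. IRAK1 had 349 against 94, 3.71-fold more (log2 1.88, SE 0.168, edgeR adjusted p = 1.42e-08), and LY96 398 against 115, 3.46-fold more (log2 1.78, SE 0.153, edgeR adjusted p = 5.65e-10). Both were higher in 12 of 12 animals and above 87.4% and 87.0% of transcripts tested. For IRAK1 the TopHat2 table alone was enough to meet the minimum, so its p-value and share are descriptions. TICAM1 had 5981 against 5752 counts, higher in 10 of 12 animals and by 0.06 on the log2 scale (SE 0.0266, edgeR adjusted p = 0.0439), a call that ended with DESeq2 (adjusted p = 0.0931) and without animal 11 (adjusted p = 0.0535) and turned to -0.24 with own totals. IRAK3 had 416 against 368 counts, more in 12 of 12 animals, with a log2 difference of 0.18 (SE 0.103, edgeR adjusted p = 0.105), or -0.12 with own totals. TRAF6 had 8 counts against 0, at least 2.67-fold higher. The median over 11090 transcripts was 0.20, with 70.8% called higher and 8.15% lower, and IRAK1, LY96 and TICAM1 were called higher.

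TopHat2 and GSNAP, the spliced methods, differed most for NFKB1 and LY96. NFKB1 had 241 counts with TopHat2 and 0 with GSNAP, at least 80.3-fold higher against the floor of 3 counts over the 12 animals. LY96 had 398 against 12, a ratio of 33.2, and was higher in 12 of 12 animals. It missed the minimum for testing in 1 column, and without a filter on low counts its log2 difference was 4.89 (SE 0.423, edgeR adjusted p = 6.65e-11). IRAK1 was 3.06-fold higher (log2 1.60, SE 0.156, edgeR adjusted p = 2.33e-08), TICAM1 1.89-fold (log2 0.91, SE 0.0317, edgeR adjusted p = 1.56e-14) and IRAK3 1.21-fold (log2 0.27, SE 0.105, edgeR adjusted p = 0.0106), each in 12 of 12 animals. The TopHat2 table alone was enough to take IRAK1 past the minimum, so the p-value of IRAK1 is a description. The IRAK3 call ended without the animal block (log2 0.27, adjusted p = 0.236). The median over 10684 transcripts was 0.72, so IRAK3 gained less than most (12.5% of transcripts had a smaller difference), and it was lower by 0.47 with own totals (log2 -0.47). Called higher with TopHat2 were 93.3% of transcripts and called lower 3.25%, and IRAK1, TICAM1 and IRAK3 were called higher.

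Within a table TICAM1, LY96 and IRAK3 varied between animals beyond counting error. The spread of IRAK1 with Stampy and of NFKB1 with Stampy-G was near counting error (chi-square per degree of freedom 1.43 and 1.40). In the Stampy table the coefficient of variation (CV) of the CPM over 12 animals was 22.9% for TICAM1, where counting alone gave 3.13%, and 48.1% for LY96, where counting gave 13.8%. For IRAK3 it was 34.5% against 17.4%, and for IRAK1 29.6% against 25%. With Stampy-G and TopHat2, where IRAK1 had more counts, its CV was 35.6% against 20.4% and 33% against 18.5%. In the Stampy-G and TopHat2 tables, NFKB1 had a CV of 26.4% and 32.7%, where counting gave 22.0% and 22.3%. The level of TICAM1 in the Stampy table was 62.4 CPM ± 14.3 (SD, n = 12), from 42.3 to 80.5. That of LY96 was 3.17 CPM ± 1.53, from 0.759 to 6.69, that of IRAK3 2.01 CPM ± 0.693, and that of IRAK1 0.979 CPM ± 0.289. NFKB1 was at 1.41 CPM ± 0.372 with Stampy-G and 1.49 CPM ± 0.489 with TopHat2.

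The tables share their reads, and the same animals stood at the ends of the order across tables for TICAM1, IRAK3 and LY96, while those of IRAK1 changed. TICAM1 was lowest in animal 2 in 6 of 6 tables, and animals 6 and 9 were among the 3 highest in all 6. IRAK3 was highest in animal 10 in 6 of 6 tables, with animals 5 and 8 among the 3 lowest in all 6. LY96 was lowest in animal 5 in the 5 tables with a mean of at least 5 counts, and animals 2 and 3 were among the 3 highest in all 5. IRAK1 had animal 2 among the 3 lowest in 6 of 6 tables, while its highest animal was 10 in 2 tables, 5 in 2, 1 in 1 and 7 in 1, and its lowest was 12 in 3, 2 in 2 and 11 in 1. NFKB1 was highest in animal 5 in both tables that counted it, but with Stampy-G animals 5, 6 and 7 each had 28 counts. Animal 2 thus had the lowest TICAM1, a low IRAK1 and a high LY96, and animal 5 a low LY96 and IRAK3.

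**Figure D4:**
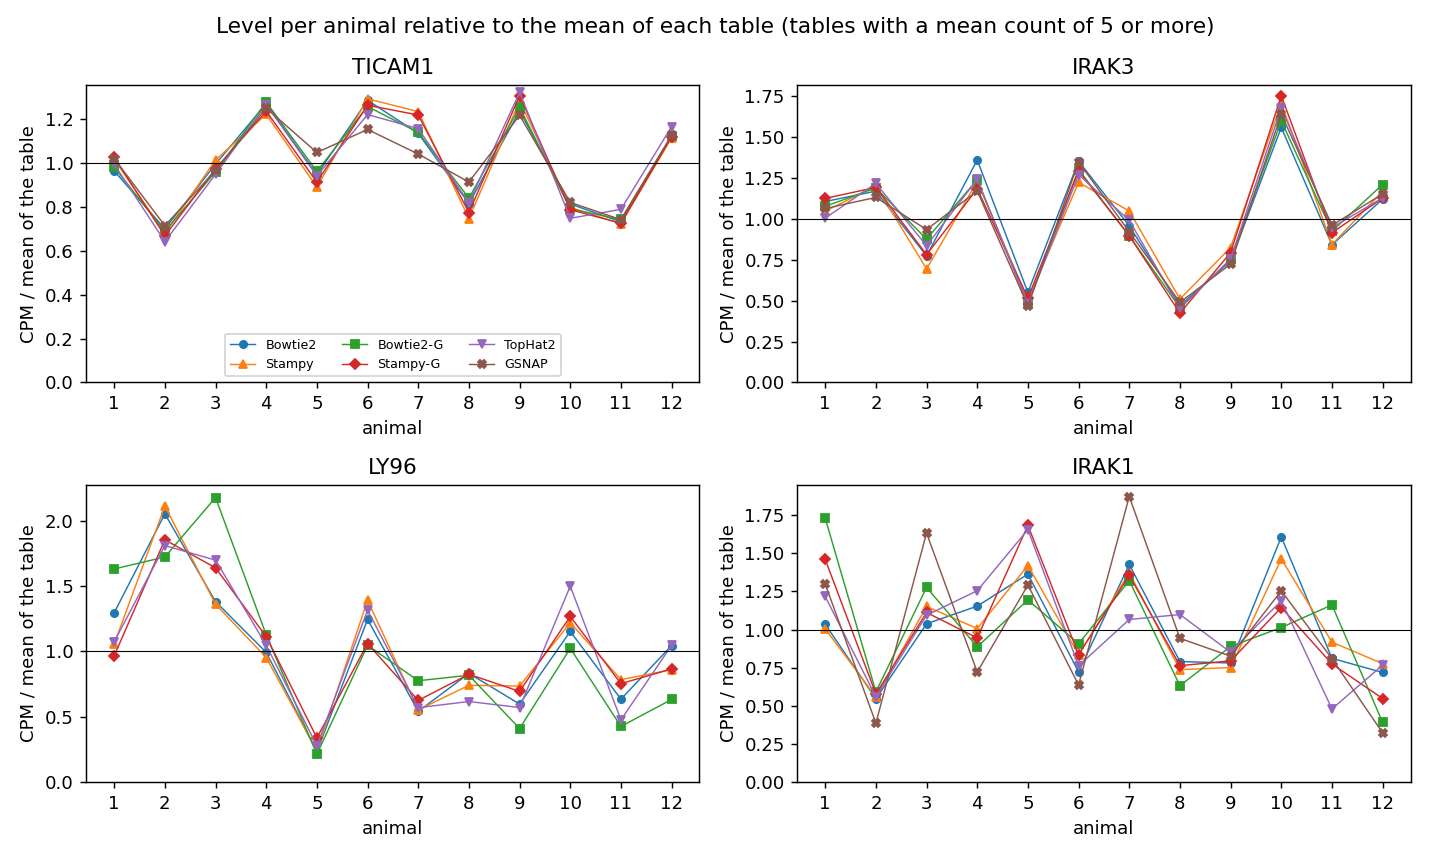
Level of 4 members in each of 12 animals, as CPM divided by the mean CPM of the table, with 1 line per mapping table (tables with a mean count of 5 or more). The lines of a gene run close together for TICAM1 and IRAK3 and spread more for IRAK1, whose counts are lowest, with animal 2 lowest for TICAM1 and animal 5 for LY96.

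Relations between members across the 12 animals were computed in the Stampy table on log2(CPM + 1) over 6 pairs, with permutation p-values from 100000 resamples, two-sided, adjusted over all 14107 transcripts tested with each member. None passed an adjusted p of 0.05. IRAK3 and LY96 had the lowest unadjusted p, with Pearson's r = 0.57 (permutation p = 0.0506, adjusted p = 0.785) and Spearman's rho = 0.57 (permutation p = 0.0558, adjusted p = 0.62). Without animals 5 and 8, which lay farthest from the median of IRAK3, r was 0.26. Without animal 5 alone r was 0.36 (permutation p = 0.275), and without animal 11 alone it was 0.56 (permutation p = 0.0683). Leaving out animals 5 and 8, which were low for IRAK3, narrows its range. These values therefore do not show whether the relation rested on them. LY96 and IRAK1 had r = -0.47 (permutation p = 0.119, adjusted p = 0.527), rho = -0.20 (permutation p = 0.546, adjusted p = 0.848) and r = 0.14 without animals 2 and 5. Each pair was adjusted among the tests of the member named first, so adjusted p-values of different pairs cannot be ranked. TICAM1 and LY96 had r = -0.16 (permutation p = 0.622, adjusted p = 1.00) and rho = -0.14 (permutation p = 0.667, adjusted p = 1), and the 3 remaining pairs had r from 0.029 to 0.17.

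The transcripts whose level followed a member most closely were looked up by Pearson's r among those with a mean of at least 100 counts. For TICAM1 this was NM_018379, with r = 0.931 and rho = 0.958 (permutation p = 1e-05 for each, the smallest that the resamples allow, adjusted p = 0.141 for each) and r = 0.886 without the 2 farthest animals. For LY96 it was NM_006136, with r = 0.907 (permutation p = 0.00013, adjusted p = 0.327), rho = 0.790 (permutation p = 0.00348, adjusted p = 0.520) and r = 0.761 without the 2 farthest animals. The files pair neither accession with a gene name. For each of TICAM1, IRAK3, LY96 and IRAK1, 0 of 14107 transcripts passed an adjusted p of 0.05 by either coefficient, and the share with an unadjusted p under 0.05 for Pearson's r was 3.77%, 5.61%, 11.2% and 3.85%.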

How the data were processed

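Per the labels and the methods of the study, the authors trimmed 50 bp read pairs with Trimmomatic 0.25 and mapped them to human sequence (hg19) with GSNAP, Stampy, TopHat2 2.0.7 and Bowtie2 2.0.6. They counted primary alignments per transcript with htseq-count (HTSeq 0.5.4, intersection-nonempty). The deposited values are raw counts without normalization, in 6 tables of 41970 rows and 12 columns, and rows of 1 accession were summed (each of the 10 members has 1 row). Strand use in counting is not given in the sources used here, so antisense reads cannot be told apart. The study's conditional quantile normalization was not repeated.

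Total counts per column were 7249470 to 18911340. Pairs of methods were fitted with edgeR 4.0.16 in R 4.3.3 (glmQLFit, glmQLFTest, filterByExpr), with the animal as a block, since both columns are the same reads. The library size of an animal was its mean total over the 6 tables. The SE is the larger of the one implied by the F statistic and the counting error of the summed counts, a choice made after seeing that the test's p is bounded by counting error. CPM used column totals, and relations used Python 3.11.15 with scipy 1.17.1. DESeq2 1.42.0, TMM scaling with own totals, no filter and no block were alternatives, and leaving out animals 5 and 11 was added later. Both tests were also run on simulated data.

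All 10 members were named by rule. The members and gene lists were chosen with earlier results of these data known. The lists of other pathway genes and of cell type markers, the sum over all transcripts of a gene, the row with the largest and smallest fold by name and the order of genes by level per length needed gene names or lengths not used here and were not run. The relation to marker scores was replaced by relations between members and to all transcripts.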

Additional observations from a re-analysis of the deposited data

Results flagged for a closer look

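The change from genome to transcriptome differed between Stampy and Bowtie2 for LY96 and IRAK1. The difference itself was tested in 1 edgeR fit over the 4 tables (adjusted over 13834 transcripts), added after the values had been seen. The Stampy-G table alone was enough to take both members past the minimum for testing, with 2 animals over it for IRAK1 and 6 for LY96 in the Bowtie2-G table. Their calls are therefore descriptions. The log2 difference, Stampy minus Bowtie2, was -1.117 for IRAK1, whose counts fell from 288 to 192 with Stampy and were 94 on the genome and 137 on the transcriptome with Bowtie2. It was -1.552 for LY96, with 665 and 628 counts for Stampy and 115 and 321 for Bowtie2, genome first. The fitted value was -5.367 for NFKB1, with 249 and 7 counts for Stampy and 6 and 9 for Bowtie2. NFKB1 entered the test only through the Stampy-G table where it was high, so it had to differ and its call says nothing further. A lower change was also called in 30.8% of all transcripts tested (4254, with 2295 higher), and with own totals and TMM scaling 3089 were lower and 3203 higher, while the cause of these differences was not tested.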

How the results depend on the processing

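Directions of small differences depended on the scaling. With each table's own total and TMM factors, transcripts called higher and lower were 3940 and 5705 for Bowtie2 against Bowtie2-G, 5007 and 6245 for Stampy against Stampy-G, 4944 and 5544 for Stampy against Bowtie2, 3698 and 4187 for Stampy-G against Bowtie2-G, 3660 and 5309 for TopHat2 against Bowtie2-G, and 4290 and 4591 for TopHat2 against GSNAP. The share of higher calls among all calls fell from 90.6%, 87.7%, 96.1%, 98.0%, 89.7% and 96.6% to 40.9%, 44.5%, 47.1%, 46.9%, 40.8% and 48.3%, in that order. Members called higher and lower were then 1 and 2 for Bowtie2 against Bowtie2-G and 0 and 5 for Stampy against Stampy-G, and 1 was lower in each of the 4 other comparisons. IRAK3 turned to a log2 difference of -0.25 (Bowtie2 against Bowtie2-G), -0.38 (Stampy against Bowtie2), -0.28 (Stampy-G against Bowtie2-G) and -0.47 (TopHat2 against GSNAP). TICAM1 turned to -0.17 (Bowtie2 against Bowtie2-G), -0.0645 (Stampy against Stampy-G) and -0.24 (TopHat2 against Bowtie2-G).

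Without the filter on low counts, lower calls were 1604 for Bowtie2 against Bowtie2-G, 340 for Stampy-G against Bowtie2-G, 1581 for TopHat2 against Bowtie2-G and 655 for TopHat2 against GSNAP. Higher calls were 17062 for Stampy against Bowtie2, and Stampy against Stampy-G had 13992 higher and 1850 lower, with 2 members higher (TRAF6 added, adjusted p = 0.0216). Without the replicate block, higher and lower calls were 4108 and 546 for Bowtie2 against Bowtie2-G, 4900 and 679 for Stampy against Stampy-G, 6367 and 279 for Stampy against Bowtie2, 5356 and 91 for Stampy-G against Bowtie2-G, and 3668 and 563 for TopHat2 against Bowtie2-G. Without the block 1 member was higher for Bowtie2 against Bowtie2-G and 0 for Stampy against Stampy-G, since TICAM1 was not called (adjusted p = 0.393 and 0.248), and IRAK3 was not called for TopHat2 against GSNAP (adjusted p = 0.236). DESeq2 and leaving out animal 5 or 11 moved none of the 24 counts of calls by over 1.5 times. DESeq2, animal 11, the unfiltered fit and the fit without the block each ended the TICAM1 call of TopHat2 against Bowtie2-G. Among the 50 levels and spreads, TMM factors moved no mean CPM by over 1 SD and no CV by over 1.5 times. The r of IRAK3 and LY96 passed an unadjusted p of 0.05 with Bowtie2 (0.58), TopHat2 (0.69), TMM (0.64) and a pseudocount of 0.1 (0.59). It did not pass with Bowtie2-G (0.44), Stampy-G (0.55) or a pseudocount of 5 (0.53), nor without animal 5 (0.36) or animal 11 (0.56). Summing all transcripts of a gene, marker relations and order per length were not run.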
